A study of Mus musculus with 12 samples.

Results

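The genes described here were Rps3a1, Rps3a2 and Rps3a3, and Rps26 and Rps26-ps1, 5 of the 54532 genes in the deposited count table. They form 2 families, each with 1 protein-coding parent gene and its pseudogene copies, and all 5 passed the filter on low counts that left 16904 genes. They were taken by gene name from a series whose earlier results had been seen, so they were chosen on measured values, and their levels and fold changes are given as a description without a test. RNA-seq gave 12 libraries of colon tissue from male WT C57BL/6J mice, 5 weeks old per the labels, with 3 libraries in each of 4 groups. The control group received no agent named in the labels. The model group received DSS, a polysaccharide that injures the colon lining when given orally. The Rhy group received rhynchophylline, a plant alkaloid, with DSS, and the labels do not give its dose in the sequenced mice. The DXM group received dexamethasone, a glucocorticoid, at 4 mg/kg with DSS. DSS colitis is a chemical injury model, and each library held RNA of mixed colon cells, so fewer cells of a type and less RNA per cell cannot be told apart.

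Rps3a1 encodes eS1 and Rps26 encodes eS26, proteins of the small (40S) ribosomal subunit that every cell needs for translation. Ribosomal protein mRNAs are abundant, and reverse transcripts of them have inserted into mammalian genomes many times as processed pseudogenes, which carry the spliced message without introns. A sequencing read without a differing base can match the spliced parent and a young copy equally well, also where it crosses an exon junction. A read over a differing base can tell them apart.

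In the GRCm38 coordinates of the count table, Rps3a1 (ENSMUSG00000028081) was at chr3:86137940-86142702 on the minus strand. Rps3a2 (ENSMUSG00000062611), annotated as a processed pseudogene, was at chr14:88123017-88123808 on the minus strand. Rps3a3 (ENSMUSG00000059751), also a processed pseudogene, was at chr13:108670603-108671397 on the plus strand, inside the span and on the strand of Pde4d, a cyclic AMP phosphodiesterase gene. Rps26 (ENSMUSG00000025362) was at chr10:128624534-128626747 on the minus strand. Rps26-ps1 (ENSMUSG00000059775), a transcribed processed pseudogene, was at chr8:107439131-107439579 on the minus strand, inside the span of the ubiquitin ligase gene Wwp2, which is read from the opposite strand. One further gene was described as a copy, AC087802.5, which had 6 counts in all and at most 2 in a library.

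The copies differed from their parents at few bases of the GENCODE M21 transcripts. Rps3a2 differed from Rps3a1 at 4 of 792 aligned bases (99.5% identity), and Rps3a3 at 9 of 795 (98.9%). Rps26-ps1 differed from Rps26 at 4 of 429 aligned bases (99.1%). With bases counted from 1 at the first base of the parent's start codon and the parent's base first, T216C and T534C were shared by Rps3a2 and Rps3a3. A645T and T668C were found in Rps3a2 alone of this pair, and A660G was 1 of 7 found in Rps3a3 alone. The 3 windows below show these positions, with the bases at which any of the 3 genes differ in capitals (bases 202 to 230, 520 to 548 and 640 to 673).
Rps3a1: gaagtgagccttgcTgatctacagaatga
Rps3a2: gaagtgagccttgcCgatctacagaatga
Rps3a3: gaagtgagccttgcCgatctacagaatga
Rps3a1: cgagaggtgcagacTaatgacttgaagga
Rps3a2: cgagaggtgcagacCaatgacttgaagga
Rps3a3: cgagaggtgcagacCaatgacttgaagga
Rps3a1: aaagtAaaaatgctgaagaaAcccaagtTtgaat
Rps3a2: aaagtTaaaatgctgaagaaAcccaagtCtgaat
Rps3a3: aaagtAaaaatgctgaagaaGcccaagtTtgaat

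For Rps26-ps1, the 2 differences within the coding part were C30T and G270A, both synonymous, and they are in capitals in the windows of bases 16 to 44 and 256 to 284. The other 2, G369A and T379C, lay after the stop codon.
Rps26: agaaacaacggtcgCgccaaaaagggccg
Rps26-ps1: agaaacaacggtcgTgccaaaaagggccg
Rps26: aatcgatcccgcgaGgcccggaaggaccg
Rps26-ps1: aatcgatcccgcgaAgcccggaaggaccg

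No stop codon interrupted the parent's reading frame in any of the 3 pseudogenes, over 264 codons in Rps3a2 and Rps3a3 and 115 in Rps26-ps1. The annotated Rps3a2 sequence, of 792 bases, ends before the position of the parent's stop codon, so that its stop was not seen. Of the differences, 1 of 4 in Rps3a2 and 2 of 9 in Rps3a3 changed the amino acid. The longest stretch without a difference from the parent was 317 bases in Rps3a2, 215 in Rps3a3 and 239 in Rps26-ps1. The coding part of Rps3a1 is crossed by 5 exon junctions and that of Rps26 by 3. Of all 100-base windows of a copy, 53.4% in Rps3a2, 18.4% in Rps3a3 and 40% in Rps26-ps1 were found unchanged in the spliced parent. With 50-base windows the shares were 76.7%, 49.6% and 59.8%, and with 150-base windows 36.4%, 10.2% and 30%. The read length and the handling of reads that match several genes are not given in the sources used here.

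**Figure D1:**
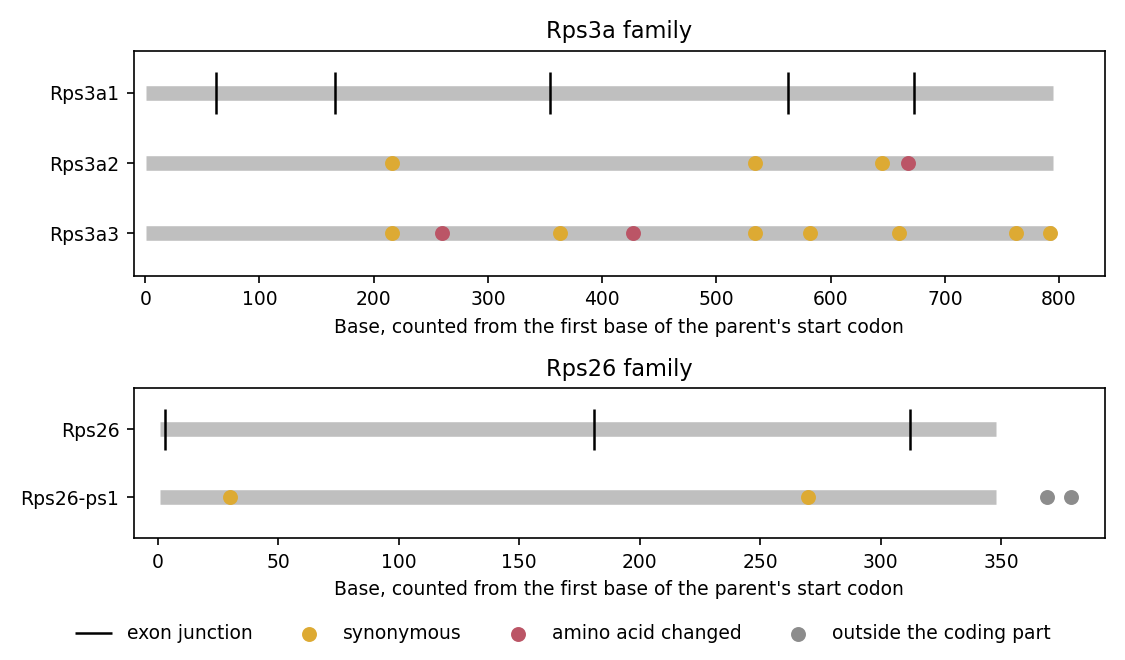
Positions at which each pseudogene differs from its parent (points, coloured by their effect on the codon) and exon junctions of the parent (vertical lines), along the coding part (grey bars, x axis in bases from the first base of the parent's start codon). Rps3a2 has 4 differences, Rps3a3 has 9 and Rps26-ps1 has 4, of which 2 lie after the coding part.

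Total counts were 14346478 to 17749716 per library, and libraries were compared in CPM, the share of a library's counts scaled by TMM. Model 1 and model 2 stood apart as a pair, with a dispersion of 0.00201 between them against 0.0604 to 0.351 for all other pairs. The labels do not say whether they came from separate mice, so n = 3 may overstate the independent samples in model. For model against control, the sum of the Rps3a genes had a log2 fold change of 0.41 without model 1 or without model 2. It was 0.39 with both. All 12 colon epithelium markers had counts in each group, with summed CPM of 19500 to 34600 in control, 17200 to 27100 in model, 18200 to 26100 in Rhy and 11100 to 24600 in DXM. B cell markers (8 of 8 with counts in each group) ranged from 1.63 in Rhy 1 and 11.9 in control 3 to 119 to 212 in the other libraries. Their part in the member levels was not tested.

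Rps3a1, the parent gene, had the most counts of its family in 10 of 12 libraries. In control it was at 419, 934 and 964 CPM, and in model at 1188, 1182 and 736. In Rhy it was at 262, 1538 and 244 CPM, and in DXM at 621, 1596 and 1520. Libraries 1 and 3 of Rhy were the lowest of all and Rhy 2 was among the highest, so that the Rhy libraries alone differed 6.31-fold from lowest to highest. Over the 12 libraries the highest value was 6.54 times the lowest.

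Rps3a2 was at 101, 5.35 and 4.28 CPM in control and at 6.51, 6.13 and 279 in model. The Rhy libraries had 439, 7.51 and 474 CPM, and the DXM libraries 151, 10.2 and 9.67. Control 1, model 3, Rhy 1, Rhy 3 and DXM 1 thus held Rps3a2 at 101 CPM or more, and the other 7 libraries at 10.2 or less. The high and low values did not follow the groups, since each group had libraries on both sides.

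Rps3a3 was high in the same 5 libraries. It was at 355, 2.64 and 2.20 CPM in control and at 3.70, 2.79 and 258 in model. Rhy held 624, 4.96 and 701 CPM, and DXM 315, 5.25 and 4.96. As counts, Rps3a3 had 12383 reads in Rhy 3 and 38 in control 2. Its highest CPM was 319 times its lowest, against 111 times for Rps3a2. The widest gap between neighbouring libraries was 5.59 on the log2 CPM scale for Rps3a3, the rank 3 of 16904 genes, and 3.29 for Rps3a2, against a median of 0.44 over all genes. Rps3a2 and Rps3a3 were the only genes of the 16904 whose widest gap set these 5 libraries above the other 7. The members were chosen on these values, so the ranks describe them and are no test.

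Within each group, Rps3a1 was lowest in the libraries where its copies were high. Rps3a1 held 47.9% of the family's counts in control 1 (exact Clopper-Pearson 95% interval 47.0 to 48.8), 57.8% in model 3 (57.1 to 58.5) and 57.1% in DXM 1 (56.3 to 57.9). It held 19.8% in Rhy 1 (19.1 to 20.4) and 17.2% in Rhy 3 (16.7 to 17.7). In the other 7 libraries it held 99.0% to 99.3%. These intervals cover counting error only. Over the 12 libraries, Pearson's r of log2 CPM was -0.86 between Rps3a1 and Rps3a2, -0.87 between Rps3a1 and Rps3a3 and 0.99 between Rps3a2 and Rps3a3, with the points sharing libraries and depth.

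The pair of copies was not in a fixed ratio. Rps3a2 had 0.285, 0.704, 0.676 and 0.48 times the CPM of Rps3a3 in control 1, Rhy 1, Rhy 3 and DXM 1, and 1.08 times in model 3. In the 7 libraries where both were low the ratio was 1.51 to 2.20. Rps3a3 was therefore the larger copy in 4 of the 5 high libraries and the smaller one in all others. Per length, Rps3a3 reached 876 FPKM and Rps3a2 595 in Rhy 3, where Rps3a1 was at 248.

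Summed over the 3 genes, the family varied less between libraries than any of its single copies. The Rps3a sum was at 875, 942 and 970.5 CPM in control and at 1199, 1191 and 1274 in model. In Rhy it was at 1324, 1551 and 1419 CPM, and in DXM at 1088, 1611 and 1535. Rhy 1 and Rhy 3, the lowest libraries for Rps3a1, were within the range of the DXM libraries for the sum. The highest sum was 1.84 times the lowest over the 12 libraries and 1.17 times within Rhy. The within-group SD of log2 CPM was 0.93 for Rps3a1, 2.87 for Rps3a2 and 3.82 for Rps3a3, and 0.17 for the sum, with a median of 0.42 over all genes. Of all genes, 6.29% had a smaller SD than the sum, and 88.8% a smaller SD than Rps3a1.

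**Figure D2:**
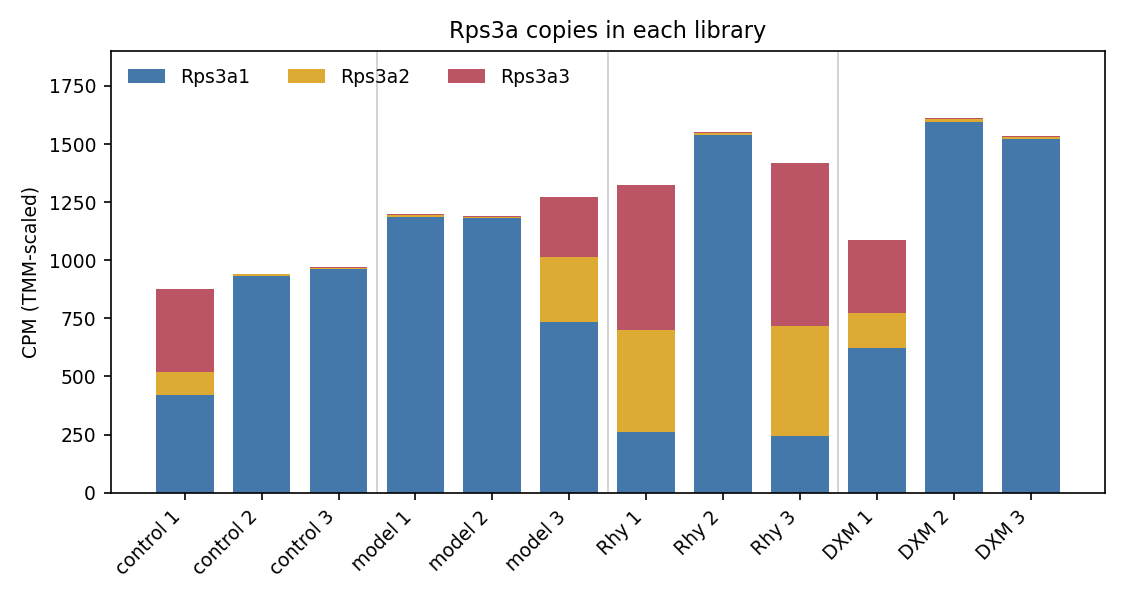
CPM (TMM-scaled, y axis) of Rps3a1, Rps3a2 and Rps3a3 stacked in each of the 12 libraries (x axis), 3 per group, with grey lines between groups. The copies are visible in control 1, model 3, Rhy 1, Rhy 3 and DXM 1, while the height of the stack, the family sum, stays between 875 and 1611.

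By group, the mean Rps3a sum was 929 ± 49.0 CPM in control, 1221 ± 45.7 in model, 1411 ± 283 in DXM and 1431 ± 114 in Rhy (SD, n = 3 each). The control libraries did not overlap with those of any other group, and Rhy did not overlap with model. Over all genes, groups did not overlap for 17%, 12.3% and 18.7% in model, Rhy and DXM against control. The share was 11.5% for Rhy against model. Nothing is read from the lack of overlap, since the members were chosen on these values. DXM overlapped with model and with Rhy. In the edgeR fit with the copies summed, the log2 fold change was 0.39 ± 0.21 (SE) for model against control, 0.62 ± 0.21 for Rhy against control and 0.60 ± 0.21 for DXM against control. It was 0.23 ± 0.21 for Rhy against model and 0.21 ± 0.21 for DXM against model. Leaving out 1 library moved the last value to 0.10 without DXM 2 and to 0.36 without DXM 1. The comparisons share the control or the model libraries.

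For the single copies the same comparisons gave values that turned on 1 library. Rps3a3 had a log2 fold change of -0.44 ± 2.21 (SE) for model against control, which was 5.19 without control 1 and -5.23 without model 3. Rps3a2 had 1.40 ± 1.77 in that comparison, and 4.34 and -2.57 without the same libraries. Rps3a1 had -0.60 ± 0.66 for Rhy against model, opposite in sign to the sum, and -2.03 without Rhy 2. For Rhy against control Rps3a1 had -0.18 ± 0.65, and -1.61 without Rhy 2. None of the 3 copies had groups that did not overlap in any of the 5 comparisons.

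Rps26, the parent of the other family, varied little. It was at 835, 873 and 665 CPM in control and at 759, 761 and 827 in model. In Rhy it was at 810.3, 1188 and 875 CPM, and in DXM at 795, 940.1 and 910.4. All groups overlapped, and Rhy 2 was above every other library. Its within-group SD of log2 CPM was 0.19, and 9.84% of all genes had a smaller one.

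Rps26-ps1 was at 3.97, 7.30 and 3.18 CPM in control and at 114, 100.4 and 148 in model. Values in Rhy were 298, 148 and 119.6 CPM, and in DXM 92.9, 105 and 4.61. The 3 control libraries and DXM 3 were thus at 7.30 CPM or less, and the other 8 libraries at 92.9 or more. As counts, Rps26-ps1 had 53, 105 and 58 reads in control and 91 in DXM 3, and 1355 to 3475 in the other 8. Its widest gap, 3.65 on the log2 CPM scale, ranked 34 of 16904 genes. No other gene had a widest gap that set these 8 libraries above the other 4. Here too the rank is a description, since Rps26-ps1 was chosen on these values. Its split was not that of Rps3a2 and Rps3a3. Model 1, model 2, Rhy 2 and DXM 2 were high for Rps26-ps1 and low for Rps3a2 and Rps3a3, and control 1 the reverse.

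Rps26-ps1 held 0.47% (exact Clopper-Pearson 95% interval 0.35 to 0.62), 0.83% (0.68 to 1.0) and 0.48% (0.36 to 0.62) of the family's counts in control 1, 2 and 3, and 0.50% (0.41 to 0.62) in DXM 3. It held 26.9% in Rhy 1 (26.1 to 27.6) and 10.1% to 15.2% in the other 7 libraries. Per length its share was larger, since the table gives Rps26-ps1 a length of 449 bases and Rps26 1544, of which the Rps26 transcript compared here has 681. In Rhy 1, Rps26-ps1 was at 656 FPKM and Rps26 at 520. Pearson's r of log2 CPM between Rps26 and Rps26-ps1 was 0.24 over the 12 libraries (-0.02 without control 3).

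The Rps26 sum was at 839.5, 879.9 and 668 CPM in control and at 873, 862 and 976 in model. In Rhy it was at 1108, 1337 and 995 CPM, and in DXM at 888, 1045 and 915. The group means were 796 ± 112 CPM in control, 904 ± 63.1 in model, 949 ± 84.2 in DXM and 1146 ± 174 in Rhy (SD, n = 3 each). In that order each group overlapped with the next. Rhy did not overlap with model or control, and DXM did not overlap with control. The same held for 11.5%, 12.3% and 18.7% of all genes in these comparisons, and nothing is read from it for the sum. The within-group SD of log2 CPM was 0.17 for the sum and 1.36 for Rps26-ps1.

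**Figure D3:**
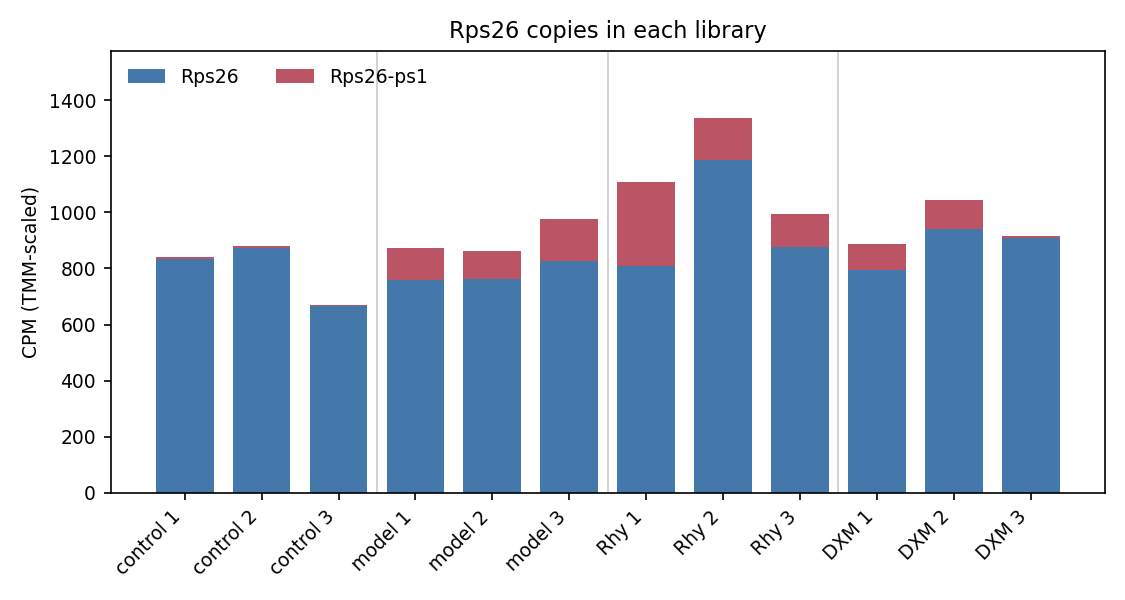
CPM (TMM-scaled, y axis) of Rps26 and Rps26-ps1 stacked in each of the 12 libraries (x axis), 3 per group, with grey lines between groups. Rps26-ps1 is a thin band in the 3 control libraries and DXM 3 (3.18 to 7.30) and 92.9 to 298 elsewhere, and Rps26 stays between 665 and 1188.

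Rps26-ps1 was the only copy with groups that did not overlap, for model against control and Rhy against control. In these comparisons 17% and 12.3% of all genes did not overlap either. Its log2 fold change was 4.65 ± 0.89 (SE) for model against control, 25.1-fold, with no overlap. For Rhy against control it was 5.29 ± 0.91, also without overlap, and for DXM against control 3.81 ± 0.86, where DXM 3 lay within the control range. It was 0.64 ± 0.75 for Rhy against model (0.15 without Rhy 1) and -0.84 ± 0.76 for DXM against model (-0.29 without DXM 3). Rps26 in the same comparisons had log2 fold changes of -0.02 ± 0.21 for model against control, 0.28 ± 0.21 for Rhy against control and 0.16 ± 0.21 for DXM against control. Without control 3 the first was -0.15 and the last 0.02, and without Rhy 2 the value for Rhy against control was 0.09. The sum of both had 0.18 ± 0.20, 0.53 ± 0.20 and 0.25 ± 0.20. The first of these was 0.04 and the last 0.12 without control 3. For Rhy against model the sum had 0.34 ± 0.20 (0.22 without Rhy 2), and for DXM against model 0.07 ± 0.20 (-0.01 without DXM 2).

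**Figure D4:**
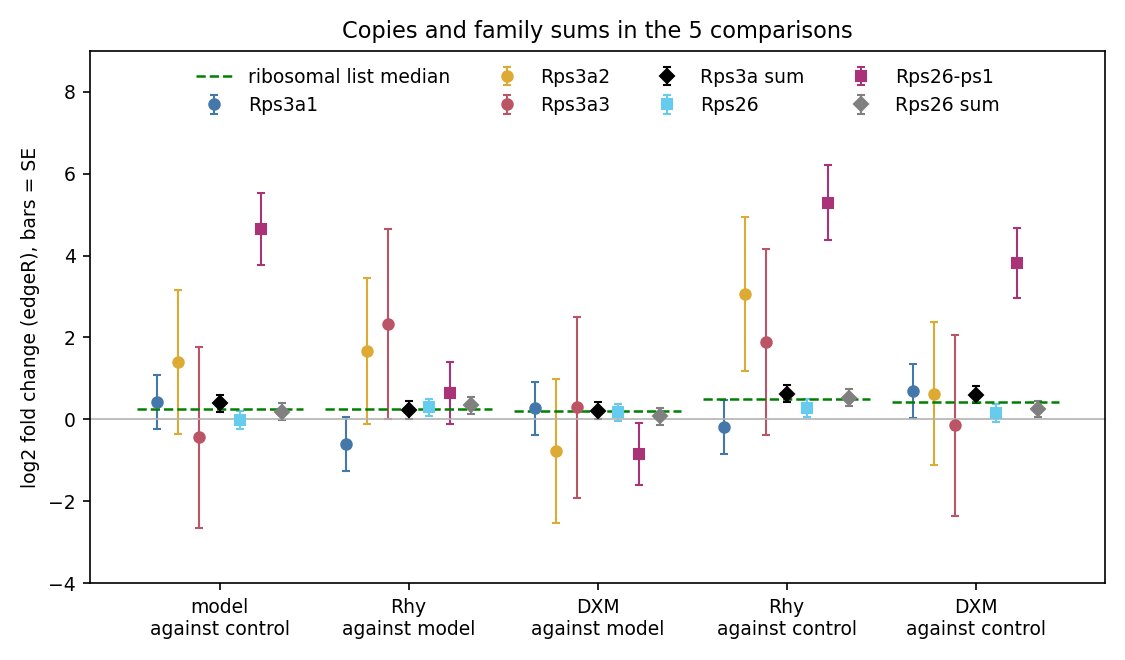
Log2 fold change (y axis, edgeR, bars are SE) of each copy and each family sum in the 5 comparisons (x axis, 3 libraries against 3), with the median of 80 other ribosomal protein genes as a dashed line. Rps26-ps1 is at 4.65, 5.29 and 3.81 against control, the SE of Rps3a2 and Rps3a3 is 1.75 or more, and the sums lie between 0.07 and 0.62.

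Across all genes, edgeR's quasi-likelihood test with Benjamini-Hochberg adjustment called 0 genes (0%) in each of the 5 comparisons, with a smallest adjusted p of 0.0971, for DXM against control. DESeq2 called 46 for model against control, 5 for Rhy against model, 51 for DXM against model, 32 for Rhy against control and 1059 for DXM against control. At an unadjusted p under 0.05, edgeR called 9.62% of all genes for model against control, 3.72% for Rhy against model, 7.69% for DXM against model, 11.6% for Rhy against control and 18.9% for DXM against control. Groups did not overlap for 17% of all genes for model against control, where Rps26-ps1 was the only member. The same held for 12.3% for Rhy against control, again with Rps26-ps1 as the only member, and for 11.5%, 22.6% and 18.7% for Rhy against model, DXM against model and DXM against control, with 0 of 5 members each. Rps26-ps1 was in a class with 2880 genes for model against control, and nothing is read from its count, since the members were chosen on these values.

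The other cytosolic ribosomal protein genes, a list of 80 that leaves out the members, were compared as the partners of eS1 and eS26 in the ribosome. edgeR called 0 of 80 in each comparison at an adjusted p under 0.05. At an unadjusted p under 0.05 it called 7 of 80 for model against control (8.75%), 4 for Rhy against model (5%) and 9 for DXM against model (11.2%). It called 38 for Rhy against control (47.5%) and 26 for DXM against control (32.5%), and each gene called was higher in the first group. Of all genes, 9.62%, 3.72%, 7.69%, 11.6% and 18.9% were called in the same order. DESeq2 called 1 for Rhy against control, 7 for DXM against control and 0 in the other comparisons, with 7, 11, 13, 40 and 26 at an unadjusted p. The share of all genes at an unadjusted p was not taken for DESeq2. The edgeR shares above are no background for these counts, and nothing is read from them. Groups did not overlap for 29, 28, 22, 35 and 26 of the 80, in the same order (36.2%, 35%, 27.5%, 43.8% and 32.5%). The shares of all genes were 17%, 11.5%, 22.6%, 12.3% and 18.7%. Of the 22, 2 were lower in DXM. The list's median log2 fold change was 0.26 for model against control, 0.25 for Rhy against model, 0.21 for DXM against model, 0.50 for Rhy against control and 0.42 for DXM against control, and the median of all genes was between -0.03 and 0.06. The Rps3a sum had 0.39, 0.23, 0.21, 0.62 and 0.60 in these comparisons, and the Rps26 sum 0.18, 0.34, 0.07, 0.53 and 0.25.

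Set against the mean log2 CPM of the list in each library, the sums moved less than the parent Rps3a1. The log2 CPM of Rps3a1 less the list mean ran from -0.61 to 1.99 over the 12 libraries, a span of 2.60, and that of the Rps3a sum from 1.37 to 2.00, a span of 0.63. Of the 80 list genes, 2 had a wider span than Rps3a1 and 52 a wider span than the Rps3a sum, with a median of 0.77. The span was 0.53 for Rps26 and 0.50 for the Rps26 sum. Pearson's r with the list mean over the 12 libraries was 0.15 for Rps3a1, 0.77 for the Rps3a sum, 0.76 for Rps26 and 0.83 for the Rps26 sum, as a description with no p.

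Of the list genes named for their size, Rpl26, a large-subunit protein, had the highest log2 fold change for model against control (5.08 ± 1.87, edgeR adjusted p = 0.479) and Rpl30, also of the large subunit, the lowest (-1.85 ± 1.01, edgeR adjusted p = 0.583). Rpl26 was at 3.62 to 9.06 CPM in control and at 307, 298 and 10.1 in model. Summed with Gm15772, a processed pseudogene that shares its sequence, it was at 940, 760 and 532 CPM in control and at 648, 637 and 756 in model, so that the groups overlapped. Rpl30 summed with a copy, Gm12191, was at 405, 356 and 283 CPM in control and at 352, 393 and 400 in model, which also overlapped. Rps10 had 0.92 ± 0.49 and Rpl24 -0.55 ± 0.49 (-0.96 without model 1) in that comparison, at 9.12 CPM or less and 3.39 CPM or less in every library. For Rhy against model, Rpl39 had 0.80 ± 0.36 and Rpl30 0.77 ± 0.99, and Rps10 -0.67 ± 0.49 and Rpl26 -0.65 ± 1.56. Leaving out 1 library moved Rpl26 to -4.22 (without Rhy 1) or -0.10 (without Rhy 2), Rpl30 to 0.31 (without model 3) or 1.44 (without model 2), Rps10 to -0.33 (without Rhy 1) and Rpl39 to 0.51 (without Rhy 3). For DXM against model, Rpl30 had 2.55 ± 1.04 and Rpl39 1.06 ± 0.36 (edgeR adjusted p = 0.637 and 0.622), and Rps19 -0.37 ± 0.26 (-0.21 without model 3) and Rpl26 -0.52 ± 1.56 (-4.11 without DXM 1). Rpl39 was at 433 to 458 CPM in model and at 538, 1004 and 1223 in DXM, so those groups did not overlap.

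The genes around the pseudogenes were compared with them by level. Pde4d, around Rps3a3, was at 3.59 to 12.7 CPM in the 12 libraries, and was 3.59 in control 1 and 11.2 in Rhy 3, where Rps3a3 was at 355 and 701. Pearson's r of Pde4d with Rps3a3 was -0.34 (-0.17 without control 1 and -0.56 without Rhy 3). Wwp2, around Rps26-ps1, was at 286, 169.9 and 109 CPM in control and at 67.4 to 126 in the other libraries. Rps26-ps1 was low in control and also in DXM 3, where Wwp2 was at 76.1. The r of Wwp2 with Rps26-ps1 was -0.45, and it was -0.20 without control 1 and -0.64 without DXM 3. These host genes were chosen after their values were seen.

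Among genes with patterns most like the members by Pearson's r of log2 CPM over the 12 libraries, Gm7600 (0.90), Serpina3f (0.90) and Luzp2 (0.85) were nearest to Rps3a1. Gm7600, a processed pseudogene, shares 347 of the 746 50-base windows of the Rps3a1 coding part, and had 4 and 6 counts in Rhy 1 and Rhy 3 and 54 in Rhy 2. Scarna2 was among the nearest to Rps3a2 (0.85) and to Rps3a3 (0.81), beside Ube2d-ps (0.82) and Gm16433 (0.82) for the former and Gm4045 (0.84) and Zfp286 (0.79) for the latter. Nearest to Rps26-ps1 were Selenoh (0.90), Pomp (0.89) and Gm26761 (0.89).

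Rps26 and the sums were nearest to other genes of the translation machinery in part. Rps20 (0.92) and Rpl19 (0.89), both ribosomal proteins, followed Txnl4a (0.93), a splicing factor, for Rps26. Rps24 (0.96) and Rpl6 (0.93), both ribosomal proteins, were among the nearest to the Rps26 sum. For the Rps3a sum they were Pbdc1 (0.97), Mrps14 (0.97), a mitochondrial ribosomal protein, and Wdr18 (0.96).

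Among 97 other kept pseudogenes named after a ribosomal protein, the median widest gap between libraries was 0.48 on the log2 CPM scale and the widest was 3.28, in Rps19-ps2. The gap of Rps3a2 was 3.29. Most of the 97 were at low levels, with a median of 4.46 CPM for the highest library of each against 474 for Rps3a2, and the set was chosen by name and leaves out copies under other names, such as Gm15772 and Gm12191. A search of all GENCODE M21 transcripts for 50-base windows of the parents found 12 further genes, chosen after values were seen, and Gm13408 had the most counts of those matching Rps3a1, 617 in all and 14 to 103 per library. Med21, which shares 127 of the 299 windows of Rps26, had 331 to 1024 counts per library.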

How the data were processed

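RNA-seq was performed by the authors on colon tissue of mice, in 12 libraries. The deposited counts are whole reads per gene in each library, without normalization. The deposited FPKM values are these counts per gene length and scaled library size (100% of 190100 values with counts of 10 or more were recovered within 0.1%). The submitters' processing notes list HISAT2 2.0.5, featureCounts 1.5.0-p3, DESeq2 1.16.1 and mm10. The handling of strand and of reads that match several genes is not given in the sources used here. Table coordinates matched GENCODE M21 (GRCm38) for 98.3% of 54409 identifiers and for all 7 genes checked.

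The tests used edgeR 4.0.16 under R 4.3.3: a two-sided quasi-likelihood test with TMM scaling on genes kept by filterByExpr (minimum count 10), in 1 model of the 12 libraries, with a Benjamini-Hochberg threshold of 0.05. The model was fitted again with each family summed. SE was the log2 fold change over the root of F. Log2 CPM used a prior count of 2. DESeq2 1.42.0 was an alternative, with other scalings, filters, libraries left out and a replicate block. Deviations from the group means of same-numbered libraries correlated at 0.10 to 0.36 in all 3 pairs of control and model. No other comparison had all 3 pairs over 0.1. Deviations within a group of 3 depend on each other, and model 1 and model 2 were close to each other. These 3 values are therefore not separate, and they do not establish that the numbers pair the groups. The labels do not say what a number marks. The code was tested on simulated counts. The labels do not say that replicates came from separate mice, so p-values measure the spread between libraries.

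The members, lists and tests were chosen with earlier results of these data known. Named genes were the members, further copies by name or description, the 3 genes nearest to each by r, and list genes called (up to 10) or with the 2 highest and 2 lowest fold changes in 3 comparisons; 1 of them is not reported here. Copies were aligned to the parent transcripts of GENCODE M21. Smooth muscle (3320 to 9390 summed CPM over the libraries), T cell (11.3 to 61), fat cell (27.9 to 250) and pancreatic acinar markers (52.1 to 289) were also summed.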

Additional observations from a re-analysis of the deposited data

How the results depend on the processing

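Of 210 alternatives for the log2 fold changes of the sums, 206 moved by less than the within-group SD. The parent alone in place of the sum moved 4, to -0.18 (Rhy against control) and -0.60 (Rhy against model) for Rps3a, and to -0.016 (model against control) and 0.28 (Rhy against control) for Rps26. Deposited FPKM in place of counts moved 53 of 60 shares of a copy beyond their counting interval. Of 475 alternatives for single copies 16 moved by more than the SD, each with 1 library left out. That SD was 2.87 for Rps3a2 and 3.82 for Rps3a3, so the count of 16 does not show stable values. Changes of sign within the SD were not counted. Rps3a2 for DXM against control, for example, went from 0.63 to -1.89 without DXM 1. Genes called rose from 0 with DESeq2 to 46 for model against control, 5 for Rhy against model, 51 for DXM against model, 32 for Rhy against control and 1059 for DXM against control, of which 1 and 7 were ribosomal protein genes in the last 2. With any count kept there were 1, 1 and 13 for model, Rhy and DXM against control, and with only the 2 groups compared 1 for model against control and 2 for DXM against model. Leaving out 1 library gave 0 to 1 for model against control, Rhy against model and Rhy against control, and 0 to 4 for DXM against control (4 without DXM 1). The cause was not tested. Rpl26 changed sign for DXM against model, to 0.022 without DXM 2 and 0.015 without DXM 3 (-4.11 without DXM 1). Same-numbered libraries correlated at r -0.31 to 0.36 over 18 pairs. With a replicate block 0 genes were called in each comparison and the Rps3a sum had 0.40 for model against control. No call changed with it. Groups of 3 limit all values.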

Other observations

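The 2 ribosomal protein genes with a wider span than Rps3a1 against the list mean were Rpl26 and Rpl30, and each had a processed pseudogene that shared its sequence and had at least 485 counts in every library. They were chosen after their values were seen. Gm15772 shares 289 of the 389 50-base windows of the Rpl26 coding part, and Gm12191 shares 249 of the 299 windows of Rpl30. Rpl26 was high in model 1, model 2, Rhy 1 and DXM 1, with 5563, 4903, 4324 and 5886 counts, and had 52 to 256 in the other 8 libraries. Gm15772 had its 4 lowest counts in those 4 libraries, at 6183, 5598, 5165 and 6376. Over the 12 libraries the highest CPM was 112 times the lowest for Rpl26, 3.75 times for Gm15772 and 2.41 times for their sum, which ran from 532 to 1280. The sum was at 532 to 940 CPM in control and at 637 to 756 in model, groups that overlapped.

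Rpl30 had its lowest counts in control 3 (115) and model 3 (181), and its highest in DXM 2 (8415) and DXM 3 (8798). Gm12191 had its lowest count in control 2 (485), where Rpl30 had 4628. In DXM 2, where Rpl30 had 8415, Gm12191 had 4727. The highest CPM was 70.6 times the lowest for Rpl30, 11.6 times for Gm12191 and 2.29 times for their sum, which ran from 283 to 648. That sum leaves out Rpl30-ps10, a processed pseudogene that shares 228 of the 299 windows. Rpl30-ps10 had 28 to 363 counts per library, with 363 in control 2 and 284 in DXM 1. The sums were described after the values were seen, and what sets the split between a gene and its copy was not tested.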
